A study of Mus musculus with 6 samples.

Results

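The Kruppel-like factor transcripts described here are 10 genes of this family, Klf2, Klf3, Klf4, Klf5, Klf6, Klf7, Klf9, Klf10, Klf13 and Klf16, taken by gene symbol from the 51912 gene identifiers of the count table. All 10 were found, and all 10 passed the filter on low counts. They were measured by messenger RNA sequencing of R1 cells, an established mouse embryonic stem cell line, which had been kept in 2iLIF, a medium that holds the naive state with inhibitors of MEK and GSK3 and the cytokine LIF. The cells were then moved to serum-free N2B27 medium that held 100 ng/ml of FGF2. One group of 3 libraries was taken after 24 h and the other group of 3 after 48 h. Both groups therefore shared the line, the starting medium and the FGF2, and differed in the time spent in it. Cells before the change of medium, or without FGF2, were not analysed here, so time, FGF2 and the loss of the inhibitors and LIF cannot be told apart. Nothing in the labels ties the replicates to separate cultures, and p-values then measure only the spread between these libraries.

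Kruppel-like factors are transcription factors that bind GC-rich and CACCC sequences through zinc fingers at the end of the protein, while the rest of the protein differs between members and recruits activators or repressors. In mouse embryonic stem cells Klf2, Klf4 and Klf5 overlap in function and maintain naive self-renewal together with Nanog, Esrrb and Tfcp2l1. Klf4 is a known target of LIF acting through STAT3, and KLF2 protein is marked for degradation when ERK is active. Of the others, Klf3 binds the CtBP corepressors, Klf9, Klf10, Klf13 and Klf16 belong to the branch that recruits the SIN3A corepressor, and Klf6 and Klf7 are a closely related pair of activators.

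The promoters of 7 of the 10 members were found in a RefSeq table of windows from 250 bases before to 50 bases after each gene start (GRCm38.p6), which had no entry for Klf5, Klf10 and Klf16. Stretches ending 31 bases before the start are shown for Klf4 and Klf2, the 2 members with the largest decreases that have a window, and for Klf9, the member that did not pass the test. They are written 5′ to 3′ on the strand of the gene. The Klf4 stretch is chr4:55532506-55532725 (minus strand), that of Klf2 is chr8:72318812-72319031 (plus strand) and that of Klf9 is chr19:23140976-23141195 (plus strand). Capitals mark GC boxes (GGGCGG on either strand) and CACCC boxes (CACCC on either strand), the letters that KLF and SP proteins are known to bind.
Klf4: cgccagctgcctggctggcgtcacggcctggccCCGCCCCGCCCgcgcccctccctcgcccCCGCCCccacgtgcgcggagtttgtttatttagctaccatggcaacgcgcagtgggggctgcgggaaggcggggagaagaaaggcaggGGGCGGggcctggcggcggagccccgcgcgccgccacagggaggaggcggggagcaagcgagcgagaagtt
Klf2: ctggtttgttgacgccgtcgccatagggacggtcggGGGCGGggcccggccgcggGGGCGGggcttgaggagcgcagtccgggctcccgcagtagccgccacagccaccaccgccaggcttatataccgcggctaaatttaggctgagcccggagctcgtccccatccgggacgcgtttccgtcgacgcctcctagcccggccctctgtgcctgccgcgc
Klf9: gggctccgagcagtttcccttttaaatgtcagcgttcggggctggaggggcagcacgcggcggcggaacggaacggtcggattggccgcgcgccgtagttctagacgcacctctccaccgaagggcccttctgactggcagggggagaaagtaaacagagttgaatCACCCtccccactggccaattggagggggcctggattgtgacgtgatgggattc
In the whole windows of 300 bases, a GC box was matched 4 times in Klf4 and 2 times in Klf2, and was not matched in Klf9. Overlapping matches are counted separately, which applies to a pair of adjoining boxes in Klf4. Among all 32851 promoter windows, 35.7% held at least 1 GC box and 57.5% at least 1 CACCC box. The Klf3 window held 6 GC boxes and 5 CACCC boxes, of which 1 shared bases with a GC box. Of all windows, 2.71% held 5 or more GC boxes and 1.02% held 5 or more CACCC boxes. The remaining member windows held from 0 CACCC boxes (Klf4 and Klf6) to 3 (Klf7). Of the members that rose and had a window, Klf13 held 3 GC boxes, more than Klf2, and Klf6 and Klf7 held 1 each. A link between GC boxes and the direction of change was not tested. A STAT site (TTCNNNGAA) was matched in the Klf9 window alone among these 7, against 8.3% of all windows. The median GC content was 52.7% over all windows, and those of the 7 members lay between 58.3% for Klf7 and 76.7% for Klf3. A match describes letters in the window and says nothing about binding in these cells.

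The 6 libraries held between 19574969 and 23133148 estimated counts, and the 10 members between 240 and 4133 counts in a library. Their counts were whole numbers in all libraries, so their totals show no reads split in fractions between similar genes. Whole totals do not show whether reads that match several genes were assigned entirely to a single gene. In edgeR's quasi-likelihood test across 14889 genes, 62.8% of genes changed between 24 h and 48 h at an adjusted p under 0.05, so a call alone sets no gene apart here. Expression is given in CPM, the counts of a gene scaled to its library's total after TMM correction, and a positive log2 fold change means more transcript at 48 h. The pluripotency markers Pou5f1, Sox2, Nanog, Utf1, Dppa5a and Sall4 were abundant, with a sum of 3660 to 3674 CPM at 24 h and 2751 to 2816 CPM at 48 h. They did not move together. By log2 fold change 2 were called higher, Utf1 (0.6) and Sall4 (0.22), and 4 lower, from Pou5f1 (-0.07) to Nanog (-1.99). The 6 primitive endoderm markers summed to 8.51 to 10.4 CPM at 24 h and 5.35 to 5.94 CPM at 48 h, the 6 trophoblast markers to 21.9 to 24.3 and 14.3 to 16.1 CPM, and the 6 fibroblast markers to 2.54 to 3.35 and 1.47 to 2.39 CPM. Among these 18 markers, Eomes had 273 to 361 counts in a library, Tfap2c 28 to 158, Gata4 45 to 148, Dab2 49 to 73, Thy1 20 to 42 and Col1a1 4 to 30. Cdx2 had at most 1 count, Foxa2 at most 3, and Postn and Lum were at 0 in all libraries, while the other 8 had at most 12. These 3 sums were lower at 48 h, and their part in the changes of the Klf genes was not tested.

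Of the 10 members, 5 fell and 4 rose between 24 h and 48 h, and Klf9 did not pass the test. Over all tested genes 31.9% were called lower and 30.9% higher. The median log2 fold change of the 10 members was -0.11, beside -0.01 for all tested genes. Klf2, Klf4 and Klf5 all fell, with a median of -1.49, whereas the other 7 had a median of 0.13, of which 4 were called higher and 2 lower. For 9 of the 10 members, and for 66.9% of tested genes, the ranges of the 24 h and the 48 h libraries were separate. At least a 2-fold decrease was called for Klf2, Klf4 and Klf5 and for 6.63% of tested genes, and at least a 2-fold increase for Klf7 and for 4.59%. Because the cells were sequenced in bulk, fewer cells with a transcript and less of it per cell cannot be told apart.

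**Figure D1:**
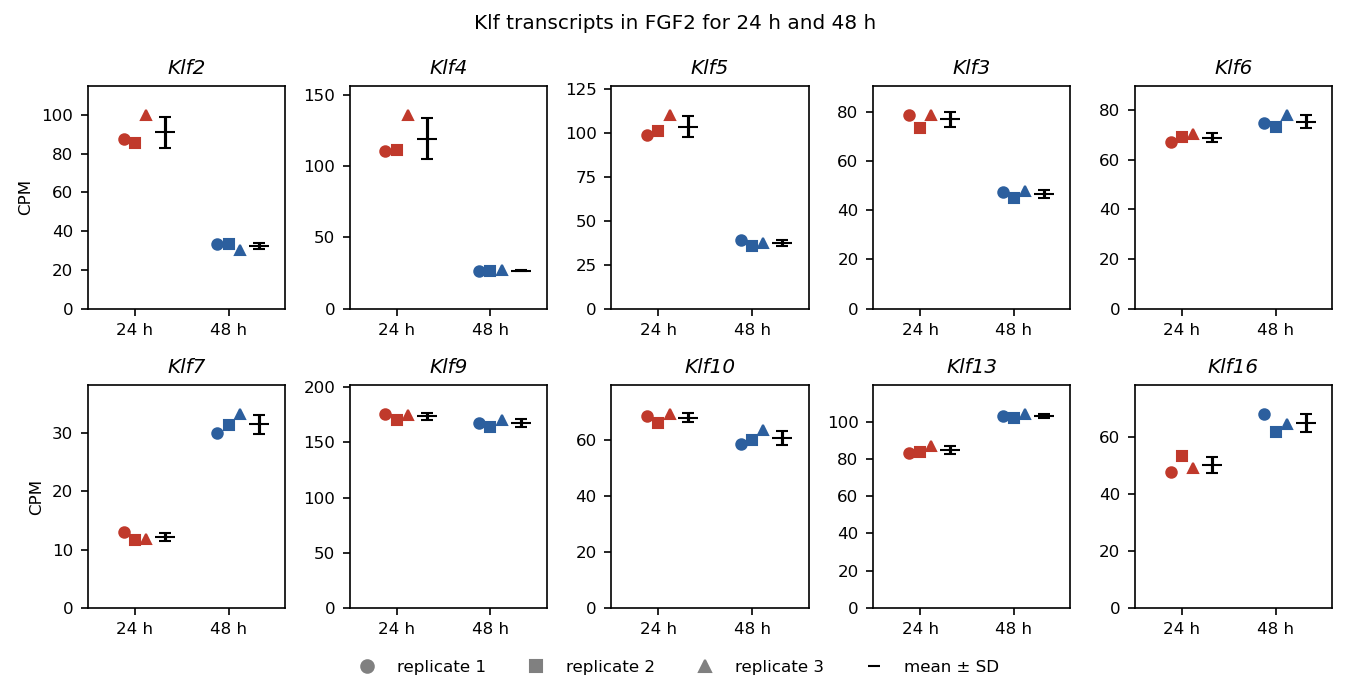
CPM of each Klf transcript (vertical axis, starting at 0) in the 3 libraries at 24 h (red) and the 3 at 48 h (blue), with a symbol for each replicate number and black bars for the mean ± SD. Klf2, Klf4 and Klf5 fell to 35.6%, 22.2% and 36.1% of their level at 24 h, Klf7 rose, and the ranges of Klf9 overlap.

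Klf4 (ENSMUSG00000003032, chromosome 4, 55527143 to 55532466 on the minus strand of GRCm38), one of the reprogramming factors, showed the largest decrease of the members. It stood at 110.7, 111.3 and 135.7 CPM in replicates 1, 2 and 3 at 24 h and at 26.4, 26.2 and 26.8 CPM at 48 h. The 48 h libraries lay close together and far below every 24 h library, and replicate 3 was the highest at 24 h. The mean was 119.2 ± 14.3 CPM at 24 h and 26.5 ± 0.28 CPM at 48 h (SD, n = 3), a log2 fold change of -2.17 ± 0.07 by its standard error (edgeR adjusted p = 9.95e-14). Only 1.25% of the tested genes had a lower fold change than Klf4.

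Klf2 (ENSMUSG00000055148, chromosome 8, 72319033 to 72321656 on the plus strand) had 87.4, 85.5 and 99.97 CPM at 24 h and 33.2, 33.5 and 30.5 CPM at 48 h. Again replicate 3 was the highest at 24 h, and the groups did not overlap. The log2 fold change was -1.49 ± 0.06 (standard error; edgeR adjusted p = 7.99e-13), and 3.12% of tested genes had a lower one. Klf5 (ENSMUSG00000005148, chromosome 14, 99298691 to 99315036 on the plus strand), which is also a regulator of the trophectoderm, had 98.9, 100.9 and 109.98 CPM at 24 h and 38.9, 35.7 and 37.2 CPM at 48 h. Its libraries were arranged in the same way, with all 24 h values above all 48 h values. Its log2 fold change was -1.47 ± 0.05 (edgeR adjusted p = 4.75e-14).

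The size of the fall was then compared among Klf2, Klf4 and Klf5 by their ratios within each library, which do not depend on the scaling of libraries. The log2 ratio of Klf4 to Klf2 counts was 0.34, 0.38 and 0.44 at 24 h and -0.33, -0.35 and -0.19 at 48 h. Klf4 thus had more counts than Klf2 in all 24 h libraries and fewer in all 48 h libraries. Counts also depend on transcript length (3029 bases for Klf4 and 1847 for Klf2), and per kilobase Klf2 was above Klf4 at both times. The ratio fell by 0.68 (two-sided exact permutation p = 0.1, the smallest that 3 against 3 libraries can give, and 0.15 adjusted over the 3 pairs compared). The ratio of Klf4 to Klf5 likewise turned from 0.2 ± 0.09 to -0.49 ± 0.06 (SD, n = 3), a difference of -0.69 (exact permutation p = 0.1, adjusted 0.15). The ratio of Klf2 to Klf5 was -0.18 ± 0.05 at 24 h and -0.2 ± 0.1 at 48 h, a difference of -0.02 (exact permutation p = 0.8, adjusted 0.8). The 9 differences between single libraries of this last ratio ran from -0.15 to 0.14, those of Klf4 to Klf2 from -0.79 to -0.53, and those of Klf4 to Klf5 from -0.86 to -0.59. Klf4 was chosen with its larger fall already known, so these differences describe these libraries.

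Of the repressor members, Klf3 (ENSMUSG00000029178, chromosome 5, 64803388 to 64832901), which binds CtBP, fell from 78.6, 73.4 and 78.5 CPM to 47.5, 44.9 and 47.9 CPM. The groups were well apart, and the log2 fold change was -0.72 ± 0.04 (standard error; edgeR adjusted p = 9.96e-11). Exons of Klf3 share 404 bases with Gm20033 on the opposite strand, which had between 6 and 17 counts in a library beside at least 982 for Klf3, and whether the counting used strand is not given in the sources used here. In the SIN3A-binding branch the members moved in both directions. Klf10, which is induced by TGF-beta, fell slightly, with 68.03 ± 1.61 CPM at 24 h and 60.8 ± 2.45 CPM at 48 h (SD, n = 3) and a log2 fold change of -0.16. Klf13 rose from 83.1, 83.9 and 87.05 to 102.9, 102.2 and 103.97 CPM (log2 fold change 0.28 ± 0.03, edgeR adjusted p = 3.4e-07). Klf16 rose from 47.9, 53.2 and 48.9 to 67.9, 61.7 and 64.6 CPM (0.37 ± 0.05, edgeR adjusted p = 2.14e-06). For both, every 48 h library was above every 24 h library, although the increase was under 1.5-fold.

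Klf9, a glucocorticoid- and thyroid hormone-responsive member and the most abundant of the 10 in CPM, had 175.5, 169.9 and 175.2 CPM at 24 h and 167.7, 163.9 and 170.7 CPM at 48 h. The ranges overlapped, and the log2 fold change of -0.05 ± 0.02 missed the threshold (edgeR adjusted p = 0.0797). Scaled by library size alone, which shifts all genes downward, it was -0.11 and passed (adjusted p = 0.000775), and without replicate 2 of 24 h it was -0.07 (adjusted p = 0.047).

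The related activators Klf6 and Klf7 both rose, by different amounts. Klf7 (ENSMUSG00000025959, chromosome 1, 64029447 to 64122282 on the minus strand), which acts in the development of neurons, had 12.97, 11.7 and 11.8 CPM at 24 h and 30.01, 31.4 and 33.2 CPM at 48 h. It had the lowest CPM of the 10 at 24 h, and in CPM it was above Klf4 in every library at 48 h. Its transcript is longer (7662 bases against 3029 for Klf4), and per kilobase it stayed below Klf4 at 48 h (4.12 against 8.74). The 24 h and 48 h libraries of Klf7 were far apart. The log2 fold change was 1.38 ± 0.06 (standard error; edgeR adjusted p = 1.31e-11), and 97.4% of tested genes had a lower one. On the opposite strand the annotated genes Gm13748 and Gm26649 share 3200 exon bases with Klf7, and they had at most 1 count in a library. Klf6 had 68.9 ± 1.68 CPM at 24 h and rose to 75.3 ± 2.5 CPM (SD, n = 3), which is a log2 fold change of 0.13 (edgeR adjusted p = 0.00459). This small increase was 0.07 and lost its call when libraries were scaled by size alone (adjusted p = 0.102).

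**Figure D2:**
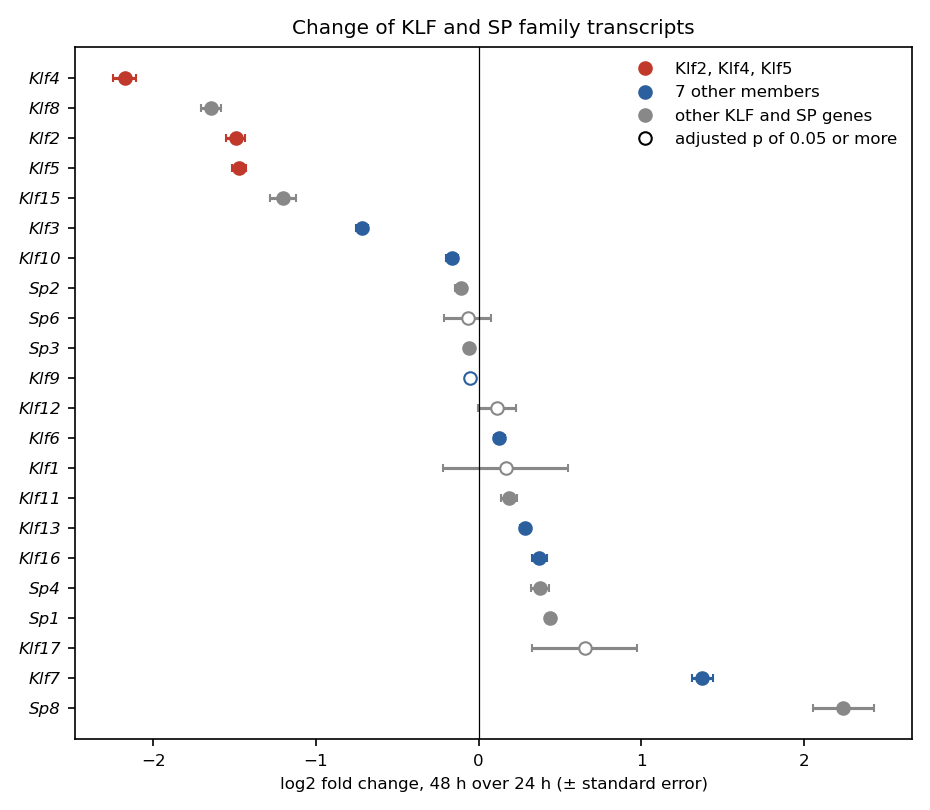
Log2 fold change of 48 h over 24 h (horizontal axis, bars for the standard error) for the 22 tested KLF and SP genes, in order of the change. Klf4, Klf8, Klf2, Klf5 and Klf15 lie at the lower end, Sp8 and Klf7 at the upper end, and open points did not pass the test.

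To compare levels between genes, CPM was divided by the length of the longest annotated transcript of each gene in kilobases. On this scale the order at 24 h was Klf2 (49.3 ± 4.25 CPM per kb, SD, n = 3), Klf4 (39.4 ± 4.71), Klf9 (38.7 ± 0.69) and Klf5 (30.8 ± 1.77). Klf10, Klf16, Klf6, Klf3 and Klf13 followed between 22.3 and 13.2 CPM per kb, and Klf7 was last at 1.59. Of neighbours in this order, Klf4 and Klf9 overlapped in their libraries, and the other neighbours did not. At 48 h the order was led by Klf9 (37.3 ± 0.76), Klf16 (24.2 ± 1.17), Klf10 (19.96 ± 0.81) and Klf6 (17.8 ± 0.59). Klf2 (17.5 ± 0.89) came next and overlapped with Klf6, then Klf13 (16.1 ± 0.14) and Klf5 (11.1 ± 0.47). Klf3 (8.96 ± 0.31) and Klf4 (8.74 ± 0.09) overlapped with each other, above Klf7 (4.12 ± 0.21). The 3 naive factors thus went from ranks 1, 2 and 4 to ranks 5, 9 and 7. With the union of all annotated exons as the length, their ranks were again 1, 2 and 4 at 24 h, and were 3, 7 and 8 at 48 h for Klf2, Klf4 and Klf5. Which transcripts the cells used is not given by a table of gene counts, and the choice of length was made after the lengths were seen.

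**Figure D3:**
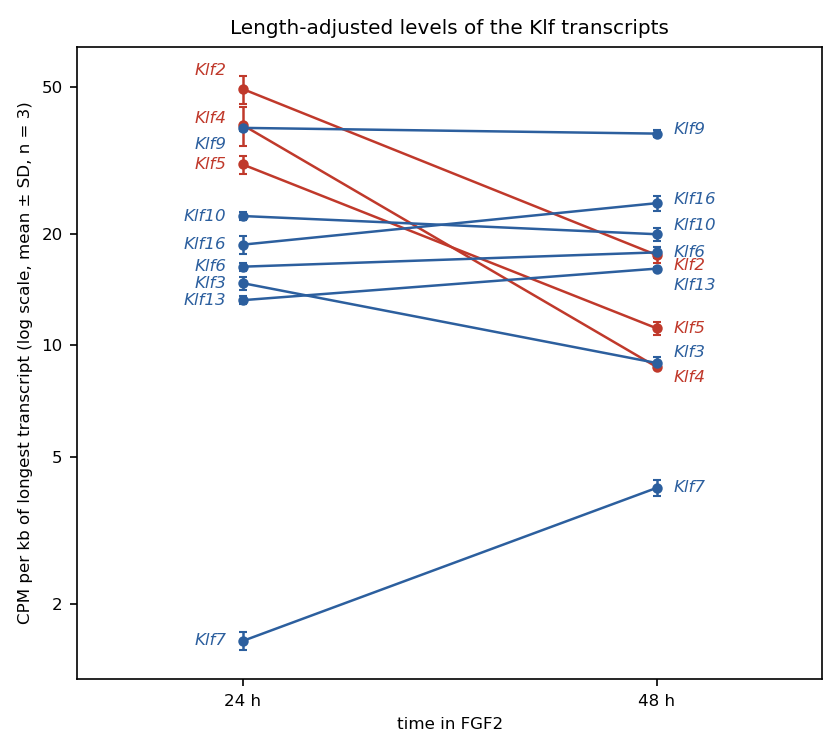
CPM per kb of the longest transcript (log scale; mean ± SD of 3 libraries) at 24 h and 48 h for the 10 members, with Klf2, Klf4 and Klf5 in red and the other 7 in blue. The red lines fall through the blue ones, which stay flat or rise apart from Klf3 and Klf10.

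The summed level of the 10 members was 245 ± 11.9 CPM per kb at 24 h (SD, n = 3) and 165.9 ± 2.79 at 48 h. Klf2, Klf4 and Klf5 together went from 119.4 ± 10.7 to 37.4 ± 0.94, and the other 7 from 125.6 ± 1.2 to 128.5 ± 3.05. With longest transcripts as lengths, the sum of the 7 was therefore nearly the same at both times. Their 24 h libraries lay between 124.7 and 126.9 and their 48 h libraries between 125.2 and 131.3, which overlap. This sum sets the falls of Klf3 and Klf10 against the rises of Klf6, Klf7, Klf13 and Klf16, and it depends on the lengths. With exon unions Klf3 weighs less (6.83 CPM per kb at 24 h and 4.16 at 48 h). The sum of the 7 was then higher in every 48 h library than in any 24 h library. It was therefore nearly flat only with longest transcripts as lengths. Klf2, Klf4 and Klf5 held 47.5%, 47.6% and 50.9% of the summed level in the 24 h libraries and 22.9%, 23.01% and 21.7% in the 48 h libraries. Klf4 alone went from 16.03% ± 1.12 to 5.27% ± 0.05, while Klf9 went from 15.8% ± 0.66 to 22.5% ± 0.17 and Klf16 from 7.65% ± 0.66 to 14.6% ± 0.53. With exon unions as lengths, the share of Klf2, Klf4 and Klf5 was 50.4% ± 2.06 and 22.9% ± 0.76, and with CPM not divided by length it was 36.9% ± 1.78 and 14.9% ± 0.44. A share rises when others fall, so the larger share of Klf9 is not an increase of its transcript.

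**Figure D4:**
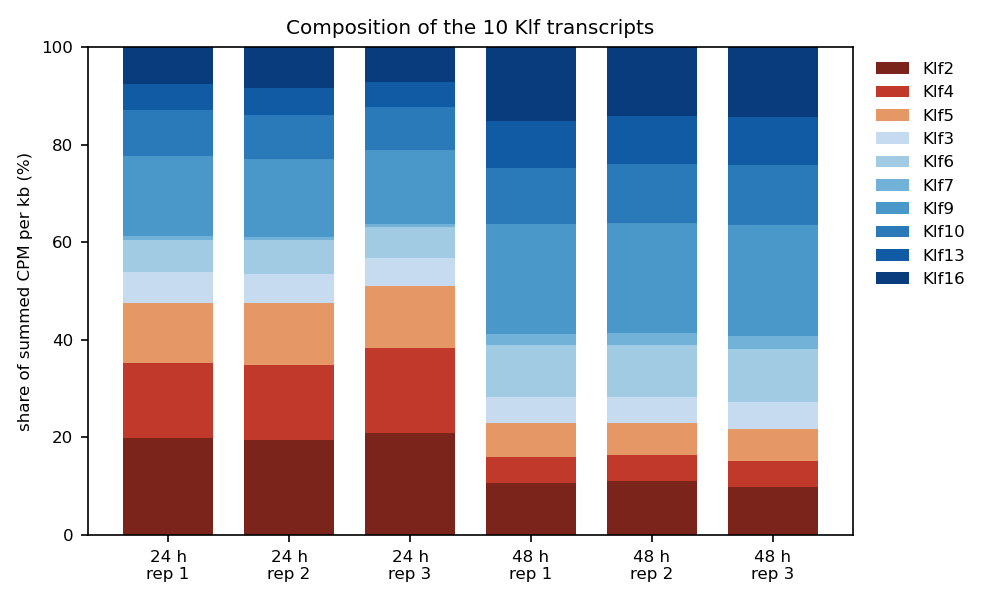
Share of each member (percent of the summed CPM per kb of the 10) in each of the 6 libraries, with Klf2, Klf4 and Klf5 in red tones at the bottom and the other 7 in blue. The red part takes 47.5% to 50.9% of the bars at 24 h and 21.7% to 23.01% at 48 h.

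Replicate 3 of 24 h was the highest library of its time for Klf2, Klf4 and Klf5. Compared with the mean of the other libraries of its time in log2 CPM, it was higher by 0.29 for Klf4, 0.21 for Klf2 and 0.14 for Klf5. Of the 7161 genes with at least 20 CPM, 0.11%, 0.5% and 2.54% had a higher deviation in that library. The other 7 members deviated between -0.06 and 0.06 there, but Klf8, a family gene outside the 10, deviated by 0.21, as much as Klf2. In the list of 14 genes of the naive network and the LIF-STAT3 pathway, 12 were above 0 in that library, a count also reached by replicate 3 of 48 h, and the median deviation was 0.04 in the first and 0.0077 in the second. The largest deviations of the list in replicate 3 of 24 h were 0.61 for Socs3, the feedback inhibitor of STAT3 signalling, 0.22 for Tbx3 and 0.15 for Stat3. Socs3 rested on 4.67 ± 1.24 CPM at 24 h (SD, n = 3). At 48 h the deviations of replicate 3 were 0.03 for Klf4, -0.13 for Klf2 and close to 0 for Klf5. This comparison was made after the values were seen. Without replicate 3 of 24 h the log2 fold changes were -2.07 for Klf4, -1.42 for Klf2 and -1.42 for Klf5, so the decreases did not rest on that library.

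**Figure D5:**
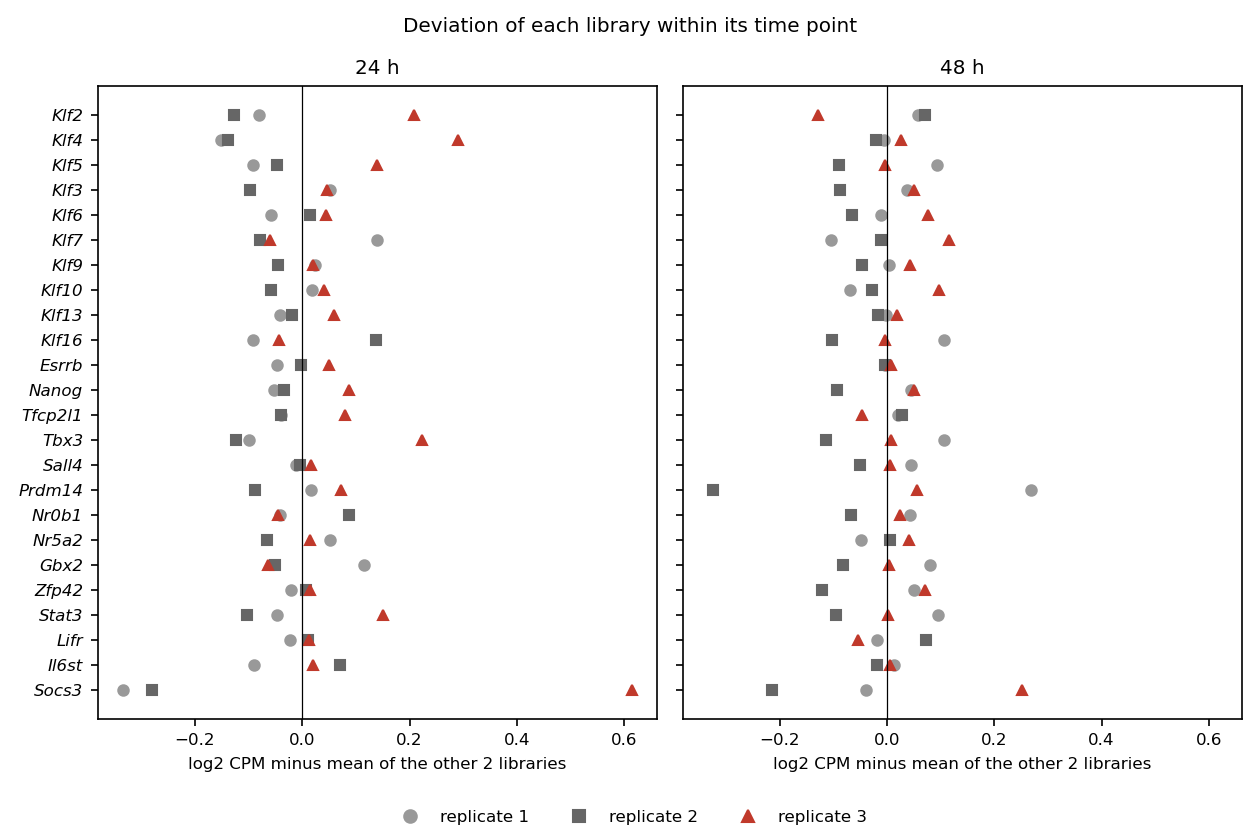
Log2 CPM of each library minus the mean of the other libraries of its time point (horizontal axis), for the 10 members and the 14 genes of the naive network and LIF-STAT3 list, at 24 h (left) and 48 h (right). Replicate 3 of 24 h (red triangles) lies to the right for Klf4 (0.29), Klf2 (0.21), Tbx3 (0.22) and Socs3 (0.61).

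The rest of the KLF and SP family was then described for comparison. Of the 16 other family genes listed, 12 were tested, 4 were called higher and 4 lower, with a median log2 fold change of 0.14. Among all tested genes 30.9% were called higher and 31.9% lower, so these counts do not set the list apart. Klf8, a CtBP-binding relative of Klf3, had 50.5 ± 4.34 CPM at 24 h and fell to 16.2 ± 0.46 CPM at 48 h (SD, n = 3). Its log2 fold change of -1.65 ± 0.06 (standard error; edgeR adjusted p = 7.69e-13) lies between those of Klf4 and Klf2. Klf15, a metabolic regulator, fell from 19.8 ± 0.96 to 8.59 ± 0.52 CPM (-1.2). Decreases of over 2-fold were thus also seen in family members that are not among the 3 naive factors. Sp8, a factor of limb and forebrain development, rose from 1.36 ± 0.48 to 6.32 ± 0.44 CPM (2.24 ± 0.19, edgeR adjusted p = 2.19e-08). Sp1, the most abundant SP gene in CPM, rose from 355.3 ± 1.54 to 481.8 ± 11.8 CPM (0.44), and Klf11 and Sp4 rose by 0.19 and 0.38. Sp2 and Sp3 had log2 fold changes of -0.11 and -0.06, and both calls were lost in DESeq2 and without replicate 1 of 48 h, that of Sp3 also without replicate 3 of 24 h or replicate 2 of 48 h. Klf1, Klf12, Klf17 and Sp6 did not pass the test, and Klf14, Sp5, Sp7 and Sp9 had too few counts to be tested. Sp5, a target of WNT signalling, had at most 0.05 CPM in a library.

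The 3 genes nearest to each naive factor were named by the distance between log2 CPM profiles over the 6 libraries, each centred on its own mean, among 10418 genes of at least 5 CPM that are not members. Nearest to Klf4 were Prickle2 (distance 0.12), Hes1 (0.15) and Tgm1 (0.18), with log2 fold changes of -2.11, -2.19 and -2.18. Nearest to Klf2 were Kank4 (0.14), Rundc3a (0.15) and Ngfr (0.17). Nearest to Klf5 were Jakmip1 (0.08), Creb3l2 (0.09) and Esrrb (0.11), the last a core naive factor, which went from 568.8 ± 12.7 to 204.8 ± 0.62 CPM (SD, n = 3). The distance between Klf2 and Klf5 was 0.16, and 2 of the 10418 genes were closer to Klf2 than Klf5 was, so Klf5 itself lay nearer to Klf2 than Ngfr did. Klf4 lay at 0.84 from Klf2 and 0.86 from Klf5, with 118 and 121 genes closer to it. With 2 groups of libraries the distance follows mostly the size of the fold change.

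Among the 14 genes of the naive network and LIF-STAT3 list, 12 fell and 2 rose, with a median of -1.19. Of all tested genes 31.9% were called lower and 30.9% higher. Of the partners, Tbx3 fell with a log2 fold change of -3.57, Prdm14 with -2.53, Tfcp2l1 with -2.25, Nanog with -1.99, Nr5a2 with -1.64 and Zfp42 with -1.06. Nr0b1, another naive partner, fell much less (-0.36), to 78.1% of its level at 24 h, and was not called by the test against a 1.5-fold change. Klf4 therefore lay near Tfcp2l1, and Klf2 and Klf5 near Esrrb (-1.47). Stat3, which carries the LIF signal to Klf4, had 59.1 ± 3.7 CPM at 24 h and fell to 28.7 ± 1.27 CPM (SD, n = 3), with a log2 fold change of -1.04. Il6st, the shared receptor subunit, and Socs3 fell too (-0.71 and -1.32). Lifr, the LIF receptor, had -0.08, a call that was lost in DESeq2 and without replicate 2 of 24 h or replicates 1 or 3 of 48 h. Sall4 and Gbx2 rose by 0.22 and 0.74, and like Nr0b1 and Lifr they were not called by the test against a 1.5-fold change. Earlier results of these data were known when this list was drawn up, so it is no independent evidence of a direction.

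Of the 9 co-regulator genes, 5 rose and 2 fell, with a median of 0.12, and the changes were small. Over all tested genes 30.9% were called higher and 31.9% lower. None of the 9 co-regulator genes, or of the 4 ubiquitin ligase genes below, was called by the test against a 1.5-fold change. Ctbp2 and Ctbp1, the partners of Klf3 and Klf8, rose by 0.55 and 0.29, and Ctbp2 had fractional counts. Sin3a, the partner of Klf9, Klf10, Klf13 and Klf16, had 231.9 ± 3.19 CPM at 24 h and rose to 276.2 ± 3.93 CPM (SD, n = 3), with a log2 fold change of 0.25. Ep300 and Crebbp, the acetyltransferases used by activating members, rose by 0.13 and 0.12, though Crebbp lost its call when scaled by library size alone. Hdac2 fell (-0.31), and Hdac1 and Kat2b did not pass the test. Sin3b, with -0.1, lost its call in DESeq2 and without replicates 2 or 3 of 24 h or replicate 2 of 48 h, while Kat2b gained one when scaled by library size alone, under both other filters, and without replicates 2 or 3 of 24 h or replicate 3 of 48 h. Of the 4 ubiquitin ligase genes, Wwp1 and Itch were called lower (-0.08 and -0.11), Btrc was called higher (0.14), and Fbxw7, which marks KLF2 and KLF5 protein for degradation, had a log2 fold change near 0 with overlapping groups. The calls of Wwp1, Itch and Btrc were lost in DESeq2 and without replicate 1 of 48 h, those of Wwp1 and Btrc also without replicate 2 of 48 h, that of Wwp1 without replicate 1 of 24 h, and those of Itch and Btrc without replicate 3 of 24 h. Btrc lost it when scaled by library size alone too. Protein levels were not measured.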

How the data were processed

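Messenger RNA of 6 libraries (3 at 24 h, 3 at 48 h) was sequenced by the authors. Their deposited values are RSEM estimated counts for each gene, with no scaling for depth or length. Per the submitters' processing notes, cutadapt 1.9.1, STAR 2.5.2, RSEM 1.3.0 and GRCm38 were used, and the annotation and the use of strand are not given in the sources used here. 0 columns were left without a sample. Gene symbols, positions, transcript lengths and exon overlaps came from GENCODE M21 (GRCm38), which named 51633 identifiers.

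The estimated counts were rounded, filtered with filterByExpr (minimum count of 10), scaled by TMM and tested with edgeR 4.0.16 (quasi-likelihood, R 4.3.3) with the time group as sole term. p-values were adjusted by Benjamini-Hochberg over all 14889 tested genes, with a threshold of 0.05. The standard error is the size of the log2 fold change divided by the square root of F. Profile distances and library deviations used log2 CPM (prior count 2). The test was checked on simulated counts of independent libraries with far fewer changed genes than here, so its error rate in these data was not checked. Alternatives were other scalings and filters, DESeq2 1.42.0, limma voom 3.58.1, unrounded counts, a replicate block, a threshold of 0.01, glmTreat against 1.5-fold and leaving out each library. The members and lists, and the rule that names them and the 3 nearest genes, were chosen with earlier results of these data known. Replicate pairs differed by 1.84 to 2.29 per degree of freedom in a chi-square test of counts and were kept as separate samples.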

Additional observations from a re-analysis of the deposited data

How the results depend on the processing

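Across the 17 alternative fits no member reversed its direction, and 163 of the values of single members kept their call while 5 lost it and 2 gained it. Klf2, Klf3, Klf4, Klf5 and Klf7 kept their direction and call in all 17, with log2 fold changes from -1.55 to -1.42, -0.78 to -0.69, -2.24 to -2.07, -1.53 to -1.42 and 1.32 to 1.42. Against a 1.5-fold change with glmTreat, 1894 genes were called instead of 9345, since that test asks for larger changes. It called 4 members lower instead of 5, with Klf10 lost, and 1 higher instead of 4. Of the other KLF and SP genes it called 3 instead of 8. Leaving out each library in turn gave 8737 to 8904 called genes, 5 or 6 members lower, 4 higher, and 6 to 8 other KLF and SP genes. The same fits moved the difference of the log2 ratio of Klf4 to Klf2 between -0.73 and -0.65, that of Klf4 to Klf5 between -0.73 and -0.64, and that of Klf2 to Klf5 between -0.072 and 0.023, the last turning sign without replicate 3 of either time (0.0052 at 24 h and 0.023 at 48 h). With library size as the only scaling, the median of all tested genes moved from -0.01 to -0.07 and the share of called genes that were higher from 49.2% to 39.9%. With the replicate block 9235 genes were called, with 5 members lower and 4 higher. The deviations of same-numbered libraries correlated at -0.09, 0.06 and -0.03, which does not pair the libraries by number. Klf1, Klf14, Klf17, Sp5, Sp7 and Sp9 had at most 26 counts in a library, which limits what can be said of them.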
